A study of Mus musculus with 4 samples.

Results

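Cystatin C and 9 cathepsins are described here, in microglia cultured from mouse cortex and exposed for 24 h to epigallocatechin gallate (EGCG) or to its vehicle. The 10 genes were chosen by symbol, as Ctsa, Ctsb, Ctsc, Ctsd, Ctsh, Ctsk, Ctsl, Ctss, Ctsz and Cst3, and all 10 were found among the 54532 genes listed in both deposited tables, of which 22046 were protein-coding. Together they took between 2.88% and 4.14% of all counts on genes in a library. For EGCG against Vehicle, no member passed an unadjusted p of 0.05 or an adjusted p of 0.1 in the quasi-likelihood test of edgeR. With treatment as the only term, few genes passed at all, 0.116% and 0% of those tested. With the replicate number as a block, DESeq2 gave Cst3 alone an unadjusted p under 0.05 (0.0159). In that fit 0.666% of all genes passed as higher in EGCG, and no member passed the adjusted threshold. For Ctsk, Ctsl, Ctsc, Ctss and Ctsd the replicates differed by far more than the groups. For Cst3 they did not, with log2 fold changes of 0.16 for EGCG and -0.16 for replicate 2 against replicate 1. In edgeR, 6 of the 10 members passed the adjusted threshold between replicate 2 and replicate 1. That share was near the 56.7% of all genes tested that did. Ctsk was 5.33-fold and Ctsl 2.51-fold higher in replicate 1, and Ctsc was 2.25-fold higher in replicate 2.

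Cathepsins are the main proteases of the lysosome. They are made as inactive proenzymes, carried to the lysosome by mannose 6-phosphate receptors and activated there, and they degrade proteins that arrive by phagocytosis, endocytosis and autophagy. Cystatin C is a small secreted protein that blocks cysteine cathepsins by occupying their active site. In the brain, microglia are a major source of cathepsins B and S, and several lysosomal genes rise in microglia that surround amyloid plaques.

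The 4 libraries came from primary microglia of male CD1 mice aged 1 to 3 days, 2 from cultures given 1 µM EGCG and 2 from cultures given Vehicle. EGCG, a galloylated flavan-3-ol of green tea, was dissolved in dimethyl sulfoxide. All cultures, Vehicle included, had grown as mixed glia in GM-CSF, had lost their astrocyte layer to trypsin, and were kept without serum in IL-34, TGFβ2, GM-CSF and cholesterol, so both groups carried these factors. The labels call the libraries biological replicates 1 and 2 of each group and do not say how many pups a culture pooled. Total counts were between 33805071 and 36307930 in 3 libraries and 54970300 in EGCG replicate 2. The p-values for EGCG against Vehicle measure the spread between these libraries. A permutation of 2 against 2 libraries could not give a two-sided p below 0.333.

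The stretches from 250 bases before to 50 bases after the annotated starts show what the upstream regions of the members hold. RefSeq windows on GRCm38.p6 were found for 8 of the 10 genes, with no entry for Ctsb and Ctsh. The letters TCACGTGA, the core of the element bound by the MITF, TFEB and TFE3 factors of lysosomal genes, stood in 0.974% of the 32851 windows of this length. They were found in the second of the Ctsa windows, with their first base 13 bases before the start and at base 5 after it, and in Ctsd, 99 bases before it. The first Ctsa window, 164832622 to 164832921, spans the gene's own start at 164832873 and held none of the motifs searched. The second lies inside the gene. The second Ctsa window and the Ctsd window are printed 5′ to 3′ on the gene's strand. The letters TCACGTGA, and any further copy of the shorter CACGTG in these windows, are in capitals. CACGTG alone, which TCACGTGA contains, was in 7.15% of all windows and in 1 further member, Ctsl.
Ctsa, chr2:164833523-164833822, plus strand: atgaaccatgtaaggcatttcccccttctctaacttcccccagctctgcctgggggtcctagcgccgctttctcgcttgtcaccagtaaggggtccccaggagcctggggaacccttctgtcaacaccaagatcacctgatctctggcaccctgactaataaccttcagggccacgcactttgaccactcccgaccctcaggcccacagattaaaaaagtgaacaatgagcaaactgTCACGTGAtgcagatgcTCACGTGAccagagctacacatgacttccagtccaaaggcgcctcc
Ctsd, chr7:142387778-142388077, minus strand: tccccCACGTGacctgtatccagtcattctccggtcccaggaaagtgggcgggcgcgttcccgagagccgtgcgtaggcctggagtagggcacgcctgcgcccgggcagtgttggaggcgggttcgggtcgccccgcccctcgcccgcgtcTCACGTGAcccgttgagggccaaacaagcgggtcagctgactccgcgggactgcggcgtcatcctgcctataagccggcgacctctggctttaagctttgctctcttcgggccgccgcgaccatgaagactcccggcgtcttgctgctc
Ctsl, chr13:64370471-64370770, minus strand: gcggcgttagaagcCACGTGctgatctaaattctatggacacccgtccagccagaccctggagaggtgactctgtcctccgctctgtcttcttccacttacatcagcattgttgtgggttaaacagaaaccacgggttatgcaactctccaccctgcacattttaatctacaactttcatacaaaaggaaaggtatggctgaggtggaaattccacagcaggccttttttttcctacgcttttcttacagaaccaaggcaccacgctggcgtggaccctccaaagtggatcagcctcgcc

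A second set is shown because its genes differed most between the replicates or lie side by side. GAGGAAGT, the core of the motif of PU.1, a factor of the myeloid lineage, was in 3.2% of all windows on either strand and in the windows of Ctsc and Ctss, where the capitals mark it on the opposite strand. Ctsk and Ctss are neighbours on chromosome 3, both on the plus strand, with 17423 bases and 0 annotated genes between them. The Ctsk window held none of the motifs named here. TGANTCA, the AP-1 motif, was in 7.81% of all windows and in no member's. These are matches of letters in a window and were not tested as binding sites.
Ctsc, chr7:88277835-88278134, plus strand: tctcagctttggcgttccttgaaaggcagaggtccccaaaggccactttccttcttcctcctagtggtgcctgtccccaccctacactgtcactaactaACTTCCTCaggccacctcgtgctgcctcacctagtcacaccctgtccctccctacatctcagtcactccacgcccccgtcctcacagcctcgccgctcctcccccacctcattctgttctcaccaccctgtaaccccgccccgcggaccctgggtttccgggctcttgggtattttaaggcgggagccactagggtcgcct
Ctss, chr3:95526536-95526835, plus strand: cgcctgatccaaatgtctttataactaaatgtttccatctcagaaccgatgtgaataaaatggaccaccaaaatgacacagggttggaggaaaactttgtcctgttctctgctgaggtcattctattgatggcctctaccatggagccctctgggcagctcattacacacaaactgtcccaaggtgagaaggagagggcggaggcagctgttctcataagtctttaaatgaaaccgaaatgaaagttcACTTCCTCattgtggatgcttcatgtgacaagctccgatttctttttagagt
Ctsk, chr3:95498960-95499259, plus strand: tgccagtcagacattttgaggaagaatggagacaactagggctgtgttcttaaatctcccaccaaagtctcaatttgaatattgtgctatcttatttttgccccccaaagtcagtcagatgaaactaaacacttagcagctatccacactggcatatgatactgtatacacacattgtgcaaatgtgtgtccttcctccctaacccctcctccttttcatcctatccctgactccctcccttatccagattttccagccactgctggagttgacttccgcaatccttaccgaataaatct

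Expression is given as CPM, TMM-normalized counts scaled to a common library size, and means are over 2 libraries with their SD. Ctsb (ENSMUSG00000021939, chromosome 14, 63122462 to 63145923), a cysteine protease that acts as endopeptidase and as dipeptidyl carboxypeptidase, had the highest CPM of the members in every library. It was at 10718 and 11691 CPM with Vehicle and EGCG in replicate 1 and 9271 and 9794 in replicate 2. The groups overlapped, with means of 9995 ± 1023 in Vehicle and 10742 ± 1342 in EGCG.

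Ctsl (ENSMUSG00000021477, chromosome 13, 64359337 to 64370890) encodes an endopeptidase with broad substrates in the lysosome. Its levels were 8931 and 9178 CPM with Vehicle and EGCG in replicate 1 and 3497 and 3722 in replicate 2. Both libraries of replicate 1 lay far above both of replicate 2, while EGCG and Vehicle differed little within a replicate. Ctss (ENSMUSG00000038642, chromosome 3, 95526786 to 95556403) encodes the endopeptidase that trims the invariant chain of MHC class II molecules in antigen-presenting cells. It was at 7470 and 7929 CPM with Vehicle and EGCG in replicate 1 and 4410 and 4412 in replicate 2. The 2 libraries of replicate 2 were thus almost equal and below both of replicate 1.

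Ctsk (ENSMUSG00000028111, chromosome 3, 95499256 to 95509362), the collagen-degrading cathepsin for which osteoclasts are known, was the lowest member in every library. It had 765 and 698 counts with Vehicle and EGCG in replicate 1 and 121 and 279 in replicate 2, or 23.3, 21.8, 3.30 and 5.06 CPM. The groups overlapped and the replicates did not.

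Ctsc (ENSMUSG00000030560, chromosome 7, 88278085 to 88310888) encodes a dipeptidyl peptidase that activates serine proteases of immune cells. Its order of replicates was the opposite of that of Ctsl, Ctss and Ctsk. Ctsc stood at 433.5 and 397.4 CPM with Vehicle and EGCG in replicate 1 and 962.4 and 904.0 in replicate 2. EGCG was slightly below Vehicle in both replicates.

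Ctsh (ENSMUSG00000032359, chromosome 9, 90054152 to 90076089), an aminopeptidase, was at 435.4 and 450.5 CPM with Vehicle and EGCG in replicate 1 and 398.5 and 381.6 in replicate 2. Ctsz (ENSMUSG00000016256, chromosome 2, 174427493 to 174439039), a carboxypeptidase also called cathepsin X, was at 2041 and 2203 CPM with Vehicle and EGCG in replicate 1 and 1878 and 1926 in replicate 2. For both genes the spread over all 4 libraries was small beside that of Ctsl or Ctsc.

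The other proteases are not cysteine proteases and are not targets of cystatin C. Ctsd (ENSMUSG00000007891, chromosome 7, 142375911 to 142388038), the aspartic protease of the lysosome, was at 8495 and 9277 CPM with Vehicle and EGCG in replicate 1 and 5442 and 5920 in replicate 2. Ctsa (ENSMUSG00000017760, chromosome 2, 164832873 to 164841032), a serine carboxypeptidase that also protects neuraminidase and beta-galactosidase, was at 1422 and 1541 CPM with Vehicle and EGCG in replicate 1 and 1365 and 1357 in replicate 2. Ctsd showed the fall from replicate 1 to replicate 2 in both groups, and the 4 values of Ctsa lay close together.

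Cst3 (ENSMUSG00000027447, chromosome 2, 148871722 to 148875692) encodes cystatin C. It had 47248 and 49875 counts with Vehicle and EGCG in replicate 1 and 45527 and 79748 in replicate 2, the deepest library being EGCG replicate 2. After normalization these were 1440 and 1557 CPM in replicate 1 and 1242 and 1446 CPM in replicate 2, the Vehicle value first in each pair. Cst3 was the only member in which both EGCG libraries lay above both Vehicle libraries, by a narrow gap between 1440 and 1446 CPM. Among all 13811 genes tested, 6.39% had both EGCG libraries above both Vehicle libraries.

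**Figure D1:**
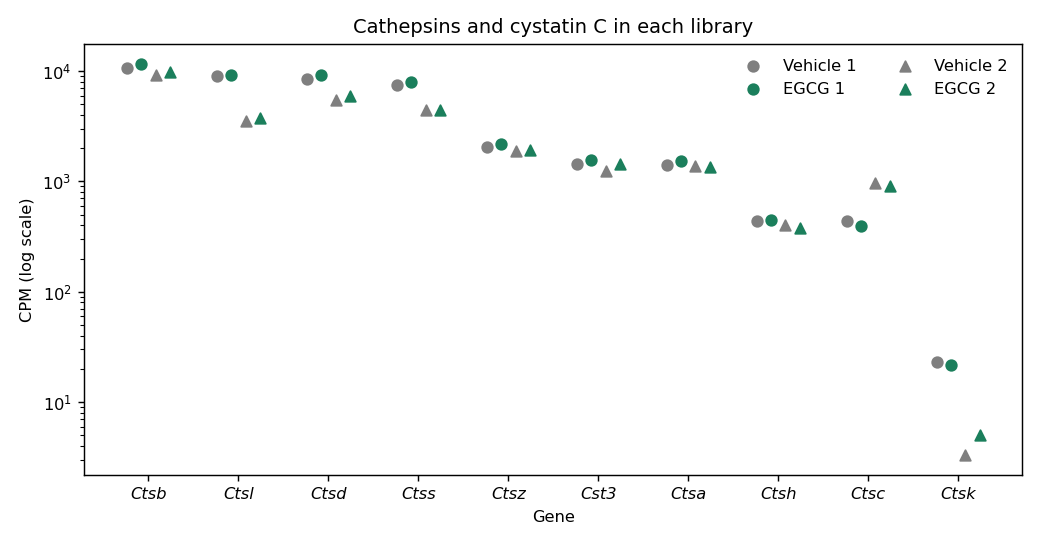
CPM of each member (y axis, log scale) in each library, Vehicle in grey and EGCG in green, replicate 1 as circles and replicate 2 as triangles. Ctsl, Ctsd, Ctss and Ctsk sit higher in replicate 1 and Ctsc sits higher in replicate 2, while grey and green points of a replicate lie close together in all members but Ctsk in replicate 2.

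The first comparison asked whether EGCG changed expression of these genes. With treatment as the only term, as the study's methods describe, edgeR gave 0 of 10 members at an unadjusted p under 0.05. Of all genes tested, 0.116% passed there. At an adjusted p under 0.1 it gave 0 of 10, against 0% of all genes. The log2 fold change lay between -0.10 for Ctsc and 0.16 for Cst3. The members' median was 0.06 beside 0.01 over all genes tested. The mean of Cst3 was 1341 ± 140 CPM in Vehicle and 1501 ± 78.5 in EGCG. Its log2 fold change of 0.16 had a standard error of 0.20 and a 95% interval from -0.39 to 0.71. The unadjusted p of Cst3 was 0.455 in edgeR and 0.478 in DESeq2 with treatment alone. The paper, which used DESeq2, marked Cst3 as upregulated by EGCG at a nominal p under 0.05. It placed Cst3 among genes whose protein in the conditioned medium was unchanged. Only with the replicate number as a block did DESeq2 give Cst3 an unadjusted p under that threshold here, at 0.0159. The source of the difference in p from the paper was not tested. Ctsl was at 6214 ± 3842 CPM in Vehicle and 6450 ± 3858 in EGCG, an SD set by the gap between replicates. Its edgeR interval ran from -1.90 to 2.00, and that of Ctsk from -3.32 to 3.34. The edgeR fit could thus not have shown a change of several fold in either gene.

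Replicate numbers were shared between the groups, and a second edgeR fit took the number as a block. It gave 0 of 10 members at an unadjusted p under 0.05, where 3.21% of all genes passed. There the log2 fold change of Cst3 was 0.17 with a standard error of 0.07 and a 95% interval from -0.01 to 0.35, and its unadjusted p was 0.0645 (edgeR adjusted p = 0.995). Ctsk moved to 0.22 with an interval from -0.24 to 0.68. The intervals of the other 8 members all included 0, and their widest limit was 0.40, for Ctsb. DESeq2 with the same block gave Cst3 an unadjusted p of 0.0159 and an adjusted p of 1. Cst3 was the 1 member past an unadjusted p of 0.05 in that fit, in which 0.666% of all genes passed it as higher in EGCG.

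Within the replicates, 6 of the 10 members were higher in EGCG both times, namely Cst3, Ctsb, Ctsd, Ctsl, Ctss and Ctsz, while 29.9% of all genes tested were. The log2 difference of Cst3 was 0.11 in replicate 1 (counting interval 0.09 to 0.13) and 0.22 in replicate 2 (0.20 to 0.24). Ctsd differed by 0.13 and 0.12, and Ctsb by 0.13 and 0.08. The medians of all members were 0.10 and 0.06 in the 2 replicates, and those of all genes tested were 0.03 and 0.00. Ctsc was lower in EGCG both times, by log2 differences of -0.13 and -0.09. Ctsk went in opposite directions, with -0.10 in replicate 1 (-0.25 to 0.05) and 0.61 in replicate 2 (0.30 to 0.94), and Ctsa and Ctsh also changed sign between the replicates. These intervals are exact binomial ones at 95% and cover counting error only.

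**Figure D2:**
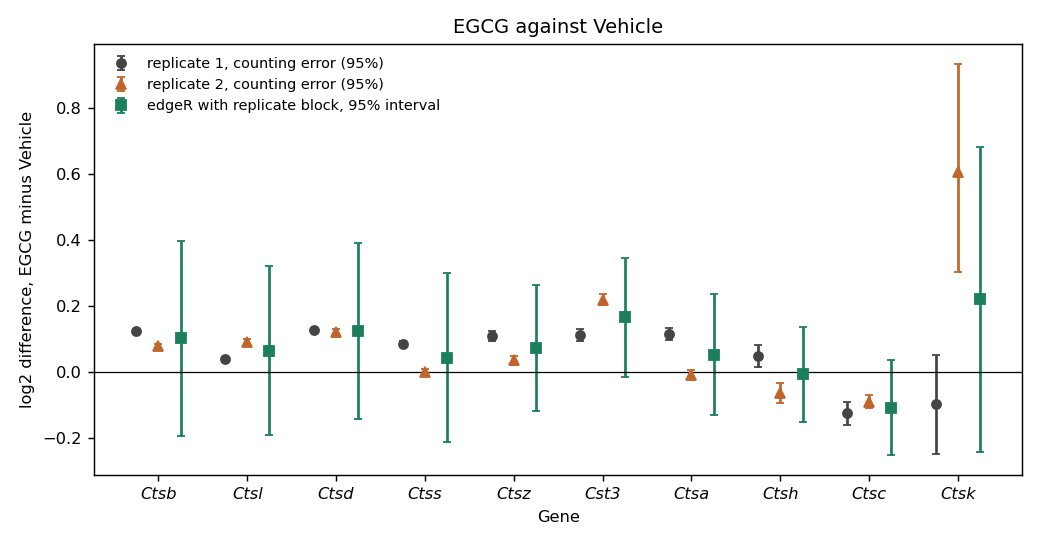
Log2 difference of EGCG minus Vehicle (y axis) for each member within replicate 1 (dark circles) and replicate 2 (orange triangles), with 95% counting intervals, and the blocked edgeR fit (green squares) with its 95% interval. All 10 intervals of the fit cross 0; Cst3 lies above 0 in both replicates and Ctsc below it in both.

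The second comparison set replicate 2 against replicate 1 over both groups. The Vehicle and EGCG libraries of a number were taken as its 2 samples. These differed in treatment, so the p-values measure the spread between the libraries of a number. They do not measure how far cultures vary in general, because each number stands for 1 Vehicle and 1 EGCG library. In edgeR, 6 of the 10 members passed an adjusted p of 0.1, beside 56.7% of all genes tested, so the share was near that of the genes at large. Of the 6 called by edgeR, 5 were lower in replicate 2 and 1 was higher, beside 27.6% and 29.1% of all genes. DESeq2 called all 10, with 9 lower and 1 higher. It called 47.2% of all genes, 23.9% as lower and 23.3% as higher. Libraries of the 2 replicates did not overlap in 9 of the 10 members, all but Cst3, and in 76.5% of all genes tested. In 3 members, Ctsc, Ctsk and Ctsl, a called difference exceeded 1 on the log2 scale, which 14.4% of all genes showed. The median absolute log2 fold change was 0.44 in the members and 0.36 over all genes.

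The log2 fold change of Ctsk between replicate 2 and replicate 1 was -2.41 (standard error 0.18, edgeR adjusted p = 7.68e-05). That of Ctsl was -1.33 (0.10, adjusted p = 8.6e-05 in edgeR), and that of Ctsc was 1.17 (0.07, adjusted p = 3.14e-05 in edgeR). Ctss fell by 0.80 and Ctsd by 0.65 on the log2 scale, with edgeR adjusted p-values of 0.000708 and 0.00323. Ctsl, Ctss, Ctsk and Ctsd were thus lower in replicate 2, and Ctsc was higher. Ctsh fell by 0.18 (edgeR adjusted p = 0.0335), a call lost without EGCG replicate 2 (adjusted p = 0.116). Ctsa, Ctsb, Ctsz and Cst3 had log2 fold changes between -0.23 and -0.12 and edgeR adjusted p-values between 0.147 and 0.220, and without Vehicle replicate 1 all 4 passed the threshold, so that 10 members did. Without EGCG replicate 2, Cst3 also passed (adjusted p = 0.0972 in edgeR).

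**Figure D3:**
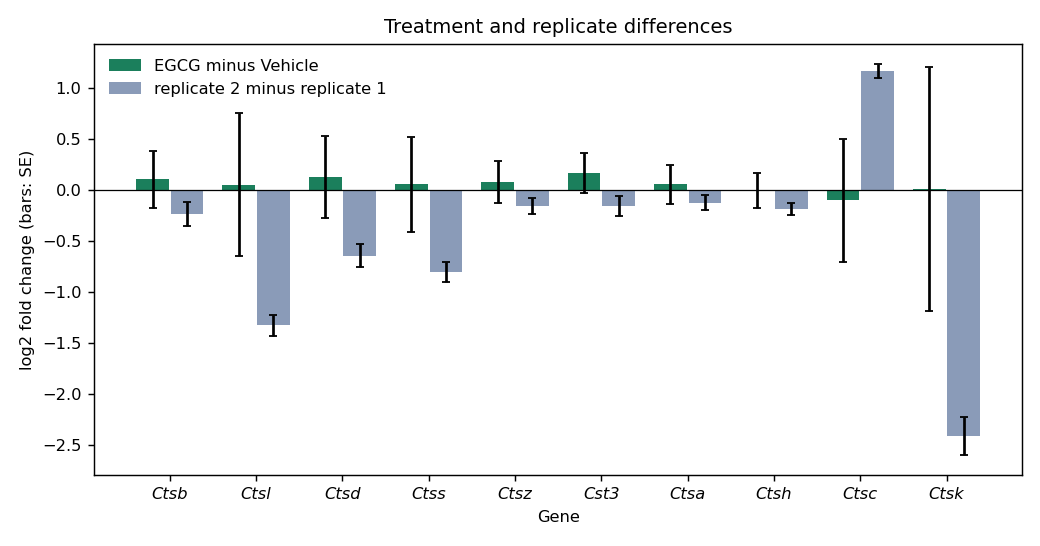
Log2 fold changes with standard errors from edgeR for EGCG minus Vehicle (green) and replicate 2 minus replicate 1 (blue), each fitted alone. The green bars lie between -0.10 and 0.16 and the blue bars between -2.41 for Ctsk and 1.17 for Ctsc.

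Levels of different genes were compared per kilobase of the gene length in the tables, which counts every annotated exon. By this measure Ctss was the highest member, at a mean over the 4 libraries of 4459 ± 1405 CPM per kilobase, and rank 6 among the 13811 genes tested. Ctsd followed at 3098 ± 803, rank 9. The ranges of these 2 genes overlapped, although Ctss was above Ctsd in each library. Ctsb was at 1714 ± 176 CPM per kilobase, Ctsz at 1396 ± 100 and Cst3 at 1122 ± 103, and the libraries of these 3 genes did not overlap. Ctsl, at 976 ± 485, overlapped both Cst3 and Ctsz. Ctsa was at 301 ± 18.0. Ctsc at 116 ± 51.7 and Ctsh at 92.6 ± 7.09 overlapped and changed places between the replicates. Ctsk was last at 8.84 ± 7.04 CPM per kilobase, so the neighbours Ctsk and Ctss differed by a ratio of 357 in Vehicle replicate 1 and of 1488 in Vehicle replicate 2.

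This order depended on the length used. The tables give Ctsl 6489 bases, while its best-ranked coding transcript has 1971, and with transcript lengths the mean of Ctsl became 3213 ± 1596 CPM per kilobase, 3.29 times the first value, which put it next after Ctss and Ctsd. On that scale Ctsl was above Ctsd in both libraries of replicate 1 and below it in both of replicate 2. The value of Ctsh grew by a factor of 2.78 and that of Ctsc by 2.33, and Ctss, Ctsz and Ctsk hardly moved. Which transcripts the cells made was not measured in the tables.

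**Figure D4:**
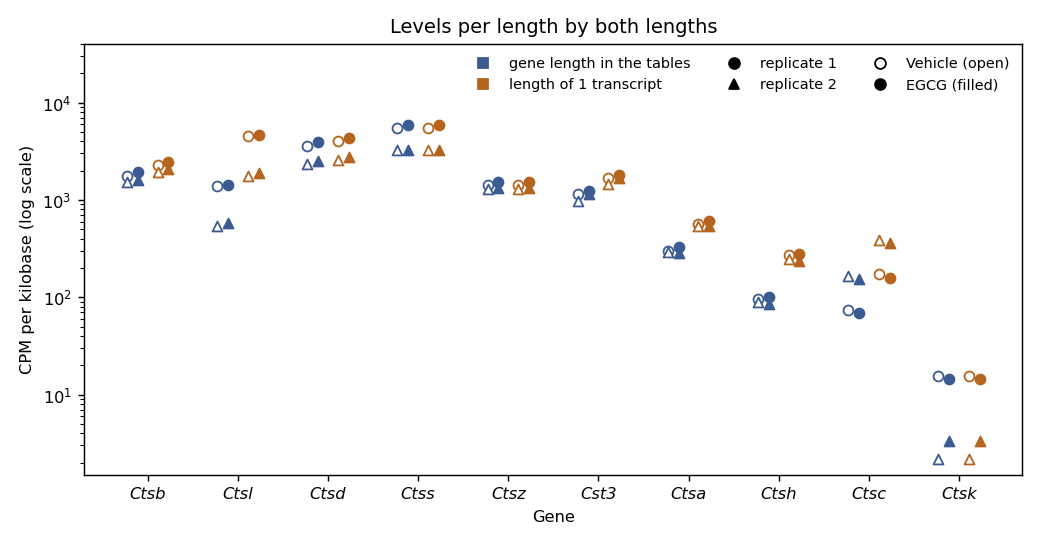
CPM per kilobase (y axis, log scale) of each member in each library, by the gene length in the tables (blue) and by the length of 1 transcript (brown); circles are replicate 1, triangles replicate 2, open symbols Vehicle and filled symbols EGCG. The lengths coincide for Ctsk and Ctsz and differ most for Ctsl.

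The 7 cysteine cathepsins among the members, the targets of cystatin C, summed to 10251 and 10897 CPM per kilobase in Vehicle and EGCG of replicate 1 and to 6879 and 7022 in replicate 2. Set against Cst3 in the same library, the ratio was 9.01 and 8.86 with Vehicle and EGCG in replicate 1 and 7.01 and 6.15 in replicate 2. The ratio was lower in EGCG within both replicates and lower in replicate 2 in both groups, also with transcript lengths, where it ran from 8.47 and 8.26 in replicate 1 to 6.18 and 5.44 in replicate 2. The ratio of Ctsl to Ctsc was 18.4 and 20.7 in Vehicle and EGCG of replicate 1 and 3.25 and 3.69 in replicate 2. These ratios are of RNA, with no test, and say nothing of enzyme activity.

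Of 14 other cathepsins, 3 were tested. Ctse, an aspartic protease, was at 128, 135, 91.7 and 93.5 CPM in Vehicle and EGCG of replicate 1 and then of replicate 2. The cysteine cathepsins Ctso and Ctsf lay between 54.6 and 78.1 CPM in the 4 libraries. Ctsw, known from cytotoxic lymphocytes, had at most 3 counts in a library, and Ctsg, known from neutrophils, had 1 count in all. The other 9, known mainly from the rodent placenta, had 0 counts in every library. With 3 counts as the limit, this allows up to 0.0936 CPM in EGCG replicate 1, the library with the smallest normalized size.

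Of 22 other cystatins and stefins in the tables, 5 were tested and 13 had 0 counts throughout. Cstb, the cytosolic inhibitor stefin B, was at 425 and 494 CPM in Vehicle and EGCG of replicate 1 and at 217 and 223 in replicate 2. Cst7, or cystatin F, an inhibitor of immune cells whose targets include cathepsin C, was at 148 and 149 CPM in replicate 1 and at 351 and 393 in replicate 2. Cst7 was thus higher in replicate 2, as Ctsc was, with a log2 fold change between replicates of 1.33 (standard error 0.07, edgeR adjusted p = 1.62e-05). Cstb was lower there, by -1.06 (0.08, edgeR adjusted p = 6.86e-05). Stfa3, a stefin A gene with close copies, had 15, 7, 0 and 0 counts in the same order of libraries, and reads may have been split between its copies. None of the tested genes of these lists had an unadjusted p under 0.05 between EGCG and Vehicle in edgeR, with or without the block.

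Among 12 genes that sort or activate lysosomal enzymes, none passed an unadjusted p of 0.05 for EGCG in either edgeR fit, and their median log2 fold change was 0.03. Psap, the precursor of the saposins, was the highest of them, at 11062, 12104, 8305 and 8874 CPM in Vehicle and EGCG of replicate 1 and then of replicate 2. M6pr, a mannose 6-phosphate receptor, was between 435 and 520 CPM, and Glb1, the lysosomal beta-galactosidase, between 101 and 132. Between replicates, 3 of the 12 were higher and 7 lower in replicate 2 at an adjusted p under 0.1, where 29.1% of all genes were called higher and 27.6% lower. Of 7 other lysosomal proteases, none passed for EGCG, and 1 was higher and 4 lower in replicate 2, with the same shares over all genes. Lgmn, or legumain, which processes several cathepsins, lay between 1971 and 2128 CPM, Tpp1 between 379 and 437, and Scpep1 between 307 and 413.

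The 4 factors of the MITF family, which bind the letters printed above for Ctsa and Ctsd, were all tested. Mitf was at 135 and 157 CPM in Vehicle and EGCG of replicate 1 and at 124 and 131 in replicate 2. It was the only 1 of them past an unadjusted p of 0.05, in the blocked edgeR fit, where its log2 fold change was 0.15 with a standard error of 0.06 and its unadjusted p was 0.0493 (adjusted p = 0.995). With treatment alone the unadjusted p of Mitf was 0.398. Tfe3 lay between 168 and 194 CPM and Tfec between 51.2 and 57.7. Ctsa and Ctsd did not pass for EGCG in either fit.

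The labelled cell type was checked against 10 microglia markers, all of which were tested. Their summed level was 5414 and 5905 CPM in Vehicle and EGCG of replicate 1 and 6850 and 6958 in replicate 2. Csf1r was at 1195 and 1264 CPM in replicate 1 and at 2373 and 2403 in replicate 2, and Trem2, at 688 and 776 against 430 and 467, went the other way. For EGCG, Trem2 had an unadjusted p of 0.0449 in the blocked edgeR fit (adjusted p = 0.995). In bulk RNA, fewer cells of a type and less RNA per cell cannot be told apart.

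Markers of other cells moved between libraries as well. The 8 fibroblast and stromal markers summed to 426 and 4.93 CPM with Vehicle and EGCG in replicate 1 and 159 and 176 in replicate 2. In EGCG replicate 1, Lum and Ogn had 0 counts, and Pdgfra, at 4.40 CPM beside 3.72 in its Vehicle library, made up most of the sum and was not lower. Of the 8 astrocyte markers, Gja1 went from 160 counts with Vehicle to 1 with EGCG in that replicate. Aqp4 had 20 and 0, and Gfap and Sox9 each had 12 and 2. Among the rest of that list, Aldh1l1 had 339 and 383 counts, Aldoc 102 and 81, Slc1a3 73 and 51, and Slc1a2 33 and 23. The 8 together summed to 22.9 CPM with Vehicle and 16.95 with EGCG. In the same pair of libraries Cst3 was at 1440 and 1557 CPM and Ctsk at 23.3 and 21.8. The 8 osteoclast markers summed to 1102 and 1191 CPM in replicate 1 and to 539 and 648 in replicate 2, the order of replicates that Ctsk had, and 5 of the 6 tested were lower in replicate 2, where 27.6% of all genes were called lower. Nfatc1 was the exception, higher by 0.49 on the log2 scale (edgeR adjusted p = 0.00204). Atp6v0d2, a proton pump subunit, gave most of the sum in each library, at 761, 844, 309 and 389 CPM. Calcr and Oscar each had at most 2 counts in a library. Atp6v0d2 and Itgb3 had blocked edgeR p-values of 0.0150 and 0.0466 for EGCG (adjusted p = 0.995 for both). The part of these markers in the levels of Ctsk and Cst3 was not tested.

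The remaining lists were small in sum. Astrocyte markers summed to between 14.3 and 22.9 CPM, with Aldh1l1 the highest of them in each library, and oligodendrocyte lineage markers, 8 genes, to between 118 and 156, with Mog at 0 counts in 3 libraries. Neuron markers, 6 genes, summed to 18.7 and 17.6 CPM in replicate 1 and to 1.06 and 1.76 in replicate 2, and Snap25 gave most of the sum in replicate 1. The 6 endothelial and pericyte markers summed to 7.65 and 5.74 CPM in replicate 1 and to 19.7 and 16.5 in replicate 2, with Cldn5 and Kcnj8 at 0 throughout. Pecam1 alone carried the higher sum in replicate 2, at 15.8 and 13.4 CPM beside 0.0610 and 0.0936 in replicate 1, while Kdr was lower there, at 2.97 and 2.81 CPM beside 5.15 and 4.84. Cdh5 and Ogn were the other 2 marker genes past an unadjusted p of 0.05 for EGCG in the blocked edgeR fit, at 0.00584 and 0.0328, both lower, with an adjusted p of 0.995.

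**Figure D5:**
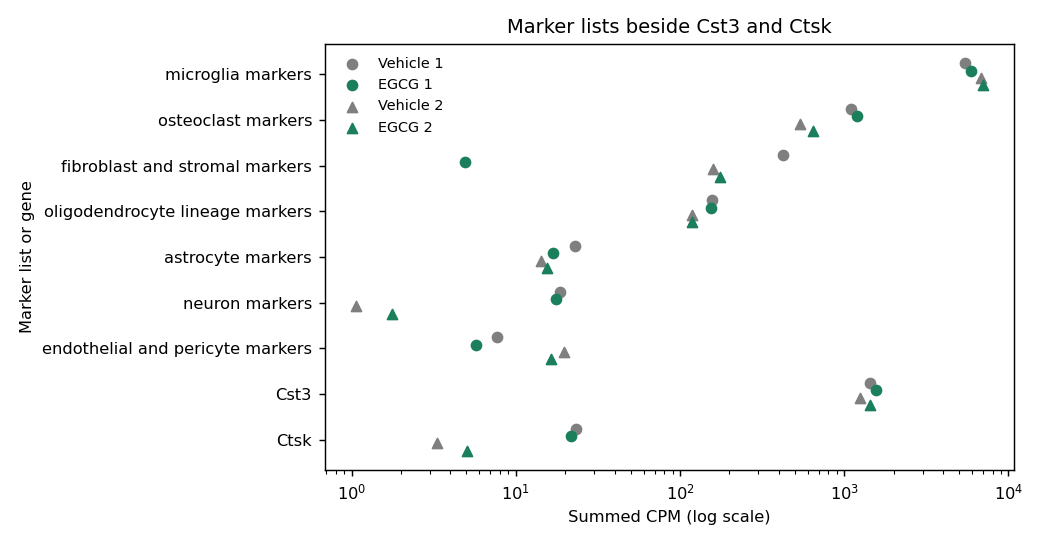
Summed CPM (x axis, log scale) of each marker list, and CPM of Cst3 and Ctsk, in each library, Vehicle in grey and EGCG in green, replicate 1 as circles and replicate 2 as triangles. The sum of the fibroblast and stromal markers is 4.93 in EGCG replicate 1, most of it from Pdgfra. It is between 159 and 426 in the other libraries. The osteoclast sum, most of it from Atp6v0d2, and Ctsk are both higher in replicate 1.

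Several members share sequence positions with other genes. Ctsa overlaps Pltp, on the opposite strand, over 1515 bases, and Pltp had 1307 and 1562 counts in Vehicle and EGCG of replicate 1 and 12594 and 16111 in replicate 2. Libraries were made with a directional kit, but the strand setting of the counting was not given in the sources used here, so Ctsa is uncertain to that extent. Ctsb overlaps Fdft1 over 774 bases, with at most 496 Fdft1 counts beside at least 339849 for Ctsb, and the antisense gene over Ctsl had at most 1 count in a library. Ctsa also overlaps Neurl2, which had at most 369 counts in a library, and Ctsd overlaps Gm49369 on its own strand, which had 0 counts in every library. Pltp, Neurl2, Fdft1 and Gm49369 were the genes that matched a member's transcripts at 90% identity or more over at least 200 bases.

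The pattern of Cst3 and of Ctsk over the 4 libraries was set against 9567 other protein-coding genes with a mean of at least 5 CPM, by the Euclidean distance of centred log2 CPM. The 4 nearest to Cst3 were Txndc9 (distance 0.0309), Utp15, Rbl1 and Ccdc86 (0.0447). Txndc9 was at 68.3 and 72.3 CPM in Vehicle and EGCG of replicate 1 and at 59.3 and 67.6 in replicate 2. The 5 nearest to Ctsk were Lrrc32 (distance 0.0652), Car5b, Lsp1, Tmem151a and Ttll11 (0.223). Lrrc32 was at 11.6 and 11.4 CPM in replicate 1 and at 1.61 and 2.50 in replicate 2. With 4 libraries, such likeness describes these libraries alone.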

How the data were processed

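RNA was sequenced from 4 libraries of primary mouse microglia, 2 per group. Raw counts of reads on each gene were deposited in 1 table per replicate, with Vehicle and EGCG columns and a gene length; reads had been aligned with HISAT2 to GRCm38.p6, per the labels. The counting program is not given in the sources used here. Tables were joined on the Ensembl identifier, leaving out loci assembled separately in each (697 and 329).

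The 13811 protein-coding genes whose counts in the 4 libraries added up to 10 or more were tested in R 4.3.3 with edgeR 4.0.16 (TMM, quasi-likelihood F test, two-sided, Benjamini-Hochberg over all genes), and with DESeq2 1.42.0 as an alternative. Other alternatives were the normalization, filters, all gene classes, a block on the replicate number and the omission of each library; transcript lengths were added after seeing the data. Log2 values used a prior count of 2. The fits were checked on simulated data with planted changes far larger than those of the members. A minimum recovery of these changes was required of the blocked fits only.

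Replicate numbers pair the libraries because each number is 1 deposited table in the study's submission sheet; differences between replicates in the 2 groups correlated across genes (r = 0.641). Members and lists were chosen with earlier results of these data known. Named genes are all members, the 3 highest per length of each list of the pathway, list genes with p under 0.05, and the 5 nearest patterns, 1 of which is not reported here. Copies were searched with BLAST 2.17.0.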

Additional observations from a re-analysis of the deposited data

How the results depend on the processing

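For EGCG against Vehicle, no member had an adjusted p under 0.1 under any alternative run, and 1 had an unadjusted p under 0.05 in DESeq2 with the replicate block, where the log2 fold change of Cst3 was 0.16. The members' median log2 fold change was 0.0179 with scaling to total counts only. Leaving out 1 library left unequal numbers of each replicate per group, and the median then ran from -0.0856 to 0.2447. Without 1 library, log2 fold changes ran from -0.0409 to 0.1145 for Ctsa, -0.0316 to 0.2143 for Ctsb, -0.84 to 0.58 for Ctsc and -0.24 to 0.48 for Ctsd. They ran from -0.1302 to 0.0813 for Ctsh, -1.40 to 2.02 for Ctsk, -0.74 to 0.89 for Ctsl, -0.43 to 0.49 for Ctss and -0.0273 to 0.1385 for Ctsz. These 9 signs changed with the library left out, and Cst3 kept its sign, from 0.04 to 0.28. Such fits mix the replicate difference into the treatment term, so their signs do not show whether the treatment differences within replicates held. Within replicates, Ctsb, Ctsd, Ctsl, Ctss and Ctsz were higher in EGCG both times and Ctsc was lower both times. Both EGCG libraries of Cst3 lay above both Vehicle libraries, so its kept sign adds nothing. Ctsk, near 0, was -0.0009 with DESeq2, -0.0027 with DESeq2 size factors in edgeR, -0.0339 with total counts and -0.0122 with 10 counts in every library. With the replicate block in edgeR, the median was 0.07 and no call on a member changed. For replicate 2 against replicate 1, 10 members were called with DESeq2 (47.2% of all genes tested) and 10 with a filter of 10 counts in every library (64.7%), and between 6 and 10 without 1 library (40.7% to 56.4%); Ctsh was not called with total counts only (edgeR adjusted p = 0.113), and no member changed direction. With treatment as the only term and 2 libraries per group, small changes in the members were below what the spread between replicates can show. The block narrowed this, with a standard error for Cst3 of 0.07 beside 0.20 in edgeR, and still no member passed an adjusted p of 0.1.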
